A study of Mus musculus with 6 samples.

Results

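Collagens are the main proteins of the extracellular matrix, each built from 3 chains wound into a triple helix. The fibrillar chains assemble into the fibrils of connective tissue and are made in quantity by fibroblasts, whereas type IV chains form the sheet-like network of basement membranes, which early embryonic epithelia and endoderm lay down. The genes described here are Col1a1, Col1a2, Col3a1, Col5a1 and Col5a2, which encode fibrillar chains of types I, III and V, Col4a1 and Col4a2, which encode the basement membrane chains of type IV, and Col6a1 and Col8a1, which encode a chain of the beaded filament collagen VI and a chain of the network-forming collagen VIII. Every probe set annotated to one of these 9 genes alone was taken, which gave 19 of the 45037 probe sets analysed: 12 for fibrillar chains, 3 for basement membrane chains and 4 for the other chains.

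They were measured in undifferentiated mouse induced pluripotent stem cells (iPSCs), reprogrammed by retroviral Oct3/4, Sox2, Klf4 and c-Myc, with a dsRed reporter, from embryonic fibroblasts that carry a Nanog-GFP transgene. The (−)/(+) group (clones 1, 2 and 3) received 3i only in the maintenance phase, and the (+)/(+) group (clones 4, 5 and 6) received 3i in both phases, 3i being the MEK inhibitor PD184352, the GSK3β inhibitor CHIR99021 and the FGF receptor inhibitor SU5402. Both groups were therefore in 3i when RNA was taken, each sample was a line grown from 1 clone on 1 array, and all lines were kept on mitomycin C-treated SNL feeder cells, which are fibroblasts, in medium with serum and LIF. The sources used here do not say whether feeder cells were removed before RNA isolation, and they give no array batch, so a batch that followed the groups cannot be told apart from them.

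On all arrays the trimmed mean was 500, whereas the median signal ranged from 74.3 to 75.7 across (−)/(+) clones and from 64.1 to 70.2 across (+)/(+) clones. The 8 pluripotency markers were all tested and 0 were called by limma (3 at an unadjusted p under 0.05, against 20.9% of all tested genes), with summed signals of 86604 to 91940 for the (−)/(+) group and 93623 to 96431 for the (+)/(+) group. Sox2 (13891, 15692 and 13222 in clones 1, 2 and 3, against 14016, 16017 and 15667 in clones 4, 5 and 6), Nanog (14402, 12676 and 13966, and 15744, 16347 and 15986) and Dppa5a (28512, 26005 and 29778, and 33294, 28122 and 31212) had the highest mean signals of them. Of the 3 at an unadjusted p under 0.05 in limma, Nanog and Zfp42 were higher in the (+)/(+) clones without overlap, by 0.23 and 0.42 on the log2 scale. Zfp42 read 2921, 3372 and 2979 against 4553, 3893 and 3999 (limma adjusted p = 0.058). The third, Tfcp2l1, was lower (-0.43, limma adjusted p = 0.23). The cells therefore carried the markers of their label in every clone.

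The promoters of the genes that the comparison turns on are shown because these genes lie on different chromosomes and moved together, while the type IV pair shares a start region. RefSeq windows were found for 7 of the 9 genes on GRCm38.p6. In the sequences of Col1a2 (chr6:4505498-4505617, plus strand), Col3a1 (chr1:45311418-45311537, plus strand) and Col8a1 (chr16:57754738-57754857, minus strand), the 120 bases before the annotated start are printed 5′ to 3′ in the direction of the gene, and capitals mark 4 motifs on either strand. The TATA box searched was spelled TATAAA, the CCAAT box was searched as its 5 letters, the GC box was spelled GGGCGG, and the C-rich run was CCCTCCCC.
Col1a2: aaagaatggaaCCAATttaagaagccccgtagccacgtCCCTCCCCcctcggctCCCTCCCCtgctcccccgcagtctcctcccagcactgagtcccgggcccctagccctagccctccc
Col3a1: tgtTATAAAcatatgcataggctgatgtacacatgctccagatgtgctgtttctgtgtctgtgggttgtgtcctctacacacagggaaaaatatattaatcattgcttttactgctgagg
Col8a1: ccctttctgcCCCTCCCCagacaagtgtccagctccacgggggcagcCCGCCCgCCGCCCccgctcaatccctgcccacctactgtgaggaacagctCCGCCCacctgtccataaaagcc

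These windows did not look alike. In the 250 bases searched, Col1a2 held a CCAAT box 109 bases before its start and C-rich runs 82 and 66 bases before it, and farther out GC boxes at 205 and 188 bases, the latter overlapping a reverse C-rich run at 193. Col3a1 held only a TATA box, 117 bases before its start. Col8a1 held 4 GC boxes and 1 C-rich run. A TATA box was found in 1 of the 7 windows, a CCAAT box in 3, a GC box in 4 and a C-rich run in 4, against 12.4%, 33.8%, 32.7% and 9.69% of the 32851 mouse promoter windows of the same length. These matches describe letters and not bound sites. Col4a1 and Col4a2 are arranged head to head on chromosome 8. The Col4a1 window used a start at base 11312826, while the annotated Col4a1 gene reaches base 11312889, farther into Col4a2. The printed 30 bases (chr8:11312801-11312830, plus strand) hold in capitals the 22 bases from the Col4a2 start to that window's Col4a1 start, which belong to both transcripts.
Col4a1 and Col4a2: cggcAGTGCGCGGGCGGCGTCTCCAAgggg

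Signals of the fibrillar chains were lower in the (+)/(+) clones, and those of the basement membrane chains Col4a1 and Col4a2 overlapped between the groups. A probe set was tested when its mean log2 value over all 6 clones was above the median of all probe sets, a signal of about 67.2, which left 12 of the 19 collagen probe sets and 22518 in all. Of these 12, limma called 6 lower in the (+)/(+) clones and 0 higher at an adjusted p under 0.05, where 1.77% of all tested probe sets were called lower and 1.35% higher. The 6 stood for 5 of the 8 genes tested (Col1a2, Col3a1, Col5a1, Col5a2 and Col8a1), where 1.41% of all tested genes were called lower and 1.55% higher. The groups did not overlap in 8 of the 12 tested probe sets, all lower in the (+)/(+) clones, against 16.6% of all tested probe sets, and in 12 of all 19, against 12.9% of all probe sets. The median log2 fold change was -1.02 over the 6 tested fibrillar probe sets, -0.05 over the 3 of the basement membrane chains and -0.65 over the other 3, beside -0.05 over all tested probe sets. In RNA from whole cultures, fewer cells of a type and less RNA per cell cannot be told apart, and the p-values measure only the spread between these clones.

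**Figure D1:**
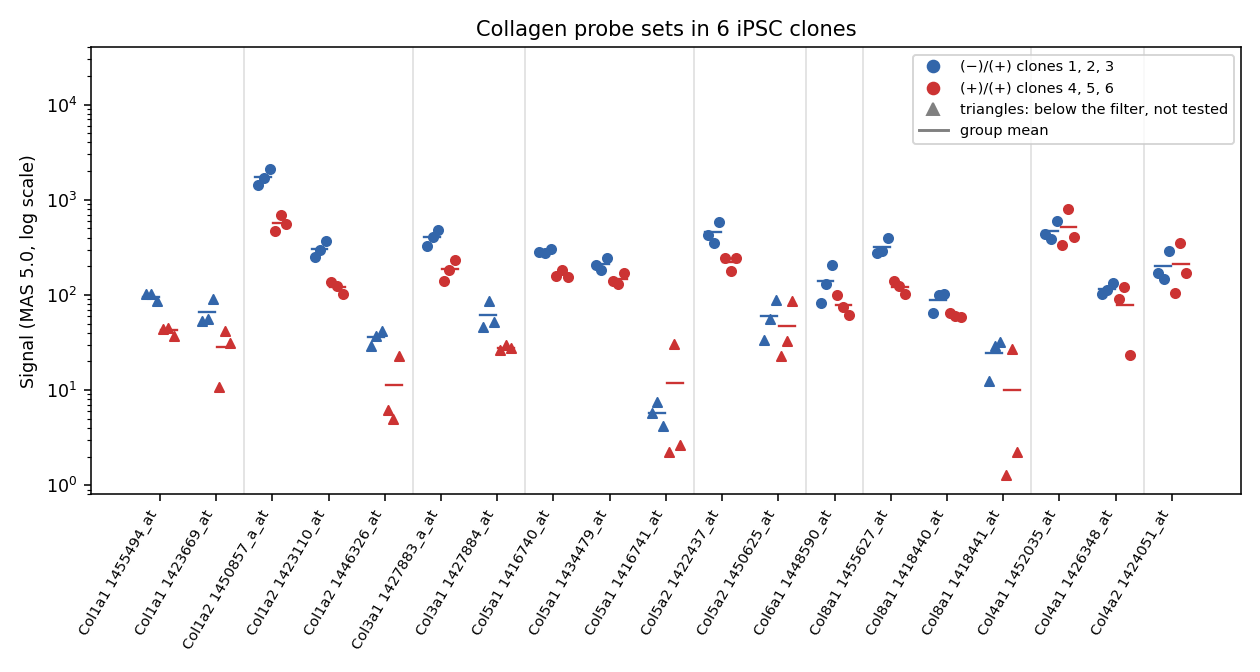
Signal of each of the 19 collagen probe sets in each clone (log axis), with (−)/(+) clones in blue, (+)/(+) clones in red, lines at the group means and triangles for the 7 probe sets below the filter. The 3 red points lie below the 3 blue ones in 12 of the 19 probe sets and in none of the 3 of Col4a1 and Col4a2.

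Col1a2, which encodes the α2 chain of type I collagen, the main collagen of skin and bone, fell most among the members. Its brightest probe set, 1450857_a_at, read 1441, 1701 and 2096 in clones 1, 2 and 3, against 468, 694 and 558 in clones 4, 5 and 6. Every (−)/(+) clone was thus above every (+)/(+) clone, and the means were 1746 ± 330 and 573 ± 114 (SD, n = 3 each), a 3.04-fold difference. On the log2(signal + 16) scale, which understates the change of low signals, the difference was -1.58 (SE 0.18, 95% interval -1.97 to -1.19, limma adjusted p = 0.0043), the 14th lowest adjusted p among all tested probe sets. The second probe set, 1423110_at, read 248, 297 and 371 against 136, 123 and 101, again with no overlap. It fell by 1.23 on the log2 scale (limma adjusted p = 0.013), a call lost without clone 3 (adjusted p = 0.052), clone 5 (0.054) or clone 6 (0.078). The third, 1446326_at, was not tested because it lay near the bottom of the range, at 28.7, 37.3 and 42 against 6.12, 4.98 and 22.7.

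Col1a1 encodes the α1 chain, the partner of Col1a2 in the type I helix, and lies on chromosome 11 rather than 6. Neither of its probe sets passed the filter, so neither was tested. The brighter, 1455494_at, read 101, 101 and 86.2 in the (−)/(+) clones, against 44.2, 45.3 and 37.3 in the (+)/(+) clones, with no overlap. Its means were 96 ± 8.5 and 42.3 ± 4.33, a 2.27-fold difference, and a limma fit over all probe sets without the filter gave -0.94 with an adjusted p = 0.12. The other, 1423669_at, read 52.8, 55.4 and 91.2 against 10.8, 41.9 and 31.5, also with no overlap (adjusted p = 0.27 without the filter in limma). Both type I chains were thus read lower in the (+)/(+) clones, with Col1a1 too dim to be tested.

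Col3a1 encodes the only chain of type III collagen, which forms fine fibrils with type I in vessels and skin. Probe set 1427883_a_at read 325, 402 and 483 in clones 1, 2 and 3, against 140, 184 and 230 in clones 4, 5 and 6, so that the groups did not overlap. It fell by 1.07 on the log2 scale (404 ± 79.2 against 185 ± 44.7, SD, n = 3 each; SE 0.21, 95% interval -1.53 to -0.62, limma adjusted p = 0.027). This call was lost without clone 2, 3, 4, 5 or 6 (adjusted p = 0.057, 0.099, 0.077, 0.078 and 0.066 in limma), without the filter (0.066) and without the trend in the variance (0.054). The dimmer 1427884_at, below the filter, read 45.8, 86.8 and 51.5 against 26.5, 29.7 and 27.7.

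The chains of type V collagen, which set the width of fibrils by starting their assembly, showed smaller changes. For Col5a1, 1416740_at read 284, 279 and 304 in the (−)/(+) clones, against 158, 182 and 155 in the (+)/(+) clones, the tightest groups of any tested collagen probe set that was called. It fell by 0.76 on the log2 scale (289 ± 13.5 against 165 ± 15; limma adjusted p = 0.033). The second Col5a1 probe set, 1434479_at, also showed no overlap, at 205, 181 and 247 against 140, 129 and 170, and was not called (-0.48, limma adjusted p = 0.17). The third, 1416741_at, lay at the bottom of the range in all clones but clone 5 (5.75, 7.4 and 4.17 against 2.24, 30.6 and 2.63) and was not tested.

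Col5a2 lies next to Col3a1 on chromosome 1. Its probe set 1422437_at read 424, 351 and 588 against 246, 177 and 246, with no overlap. The change was -0.96 (454 ± 122 against 223 ± 39.8; 95% interval -1.42 to -0.50, limma adjusted p = 0.04). The untested 1450625_at overlapped, at 33.8, 56.3 and 88.1 against 22.9, 32.5 and 85.6. The Col5a1 call was lost without clone 2, 3, 4, 5 or 6 (limma adjusted p = 0.061, 0.12, 0.084, 0.066 and 0.14), without clones 1 and 4 together (0.062) and without the filter (0.075). The Col5a2 call was lost without clone 3, 4, 5 or 6 (0.13, 0.08, 0.11 and 0.13), without clones 1 and 4 together (0.053), without the filter (0.087), without the trend (0.069), and after quantile normalization (0.071) or scaling to a common median (0.055). With the probe sets of a gene averaged, Col5a1 was at -0.34 (adjusted p = 0.33) and Col5a2 at -0.64 (0.2).

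Of the non-fibrillar chains outside basement membranes, Col8a1, a collagen of vessel walls and of the cornea, fell and Col6a1 was not called. Col8a1 probe set 1455627_at read 278, 290 and 398 in the (−)/(+) clones, against 140, 124 and 103 in the (+)/(+) clones, without overlap. It fell by 1.28 on the log2 scale (322 ± 66.4 against 122 ± 18.6, 2.63-fold; 95% interval -1.70 to -0.86, limma adjusted p = 0.011), a call lost without clone 5 (0.051) or 6 (0.07). The other Col8a1 probe sets did not pass: 1418440_at read 65, 99.1 and 101 against 64, 59.3 and 59.1 (-0.42, limma adjusted p = 0.3), and the untested 1418441_at read 12.5, 29.2 and 32.1 against 1.29, 26.8 and 2.24. With the mean of all its probe sets Col8a1 was at -0.81 (adjusted p = 0.085). Col6a1 read 81.4, 129 and 208 against 100, 75.3 and 61.8, a wide spread in the (−)/(+) group that overlapped the other (-0.65, 95% interval -1.31 to 0.01, limma adjusted p = 0.24). With arrays weighted by their quality it was called (-1.03, adjusted p = 0.033).

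**Figure D2:**
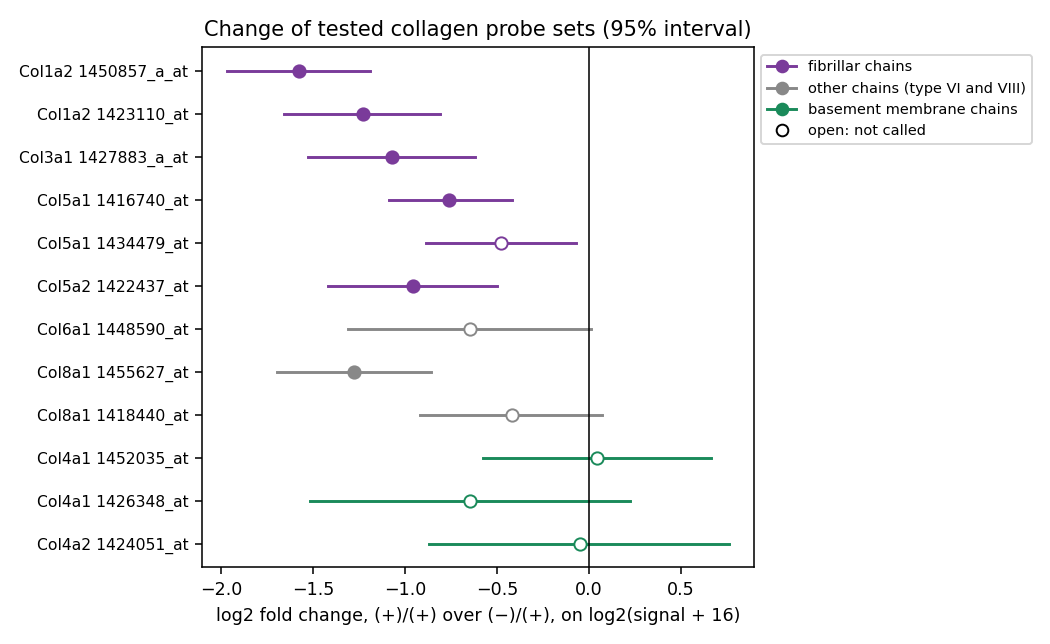
Log2 fold change, (+)/(+) over (−)/(+), of the 12 tested collagen probe sets with the 95% interval from limma; filled points were called, and colours give the chain class. Of the 6 fibrillar probe sets 5 were called, and the intervals of the 3 basement membrane probe sets all include 0.

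The basement membrane chains behaved differently from clone to clone. Col4a1 and Col4a2 encode the chains that together make the most widespread type IV helix. Col4a1 probe set 1452035_at read 437, 387 and 595 in clones 1, 2 and 3, against 337, 798 and 407 in clones 4, 5 and 6, so that clone 5 was the highest and clone 4 the lowest of all 6. The means were 473 ± 109 and 514 ± 249, and the difference was 0.04 with a 95% interval of -0.58 to 0.66 (limma adjusted p = 0.95). Col4a2 probe set 1424051_at showed the same order of clones 4, 5 and 6, at 170, 146 and 292 against 105, 349 and 171 (203 ± 78.3 against 209 ± 126; -0.05, 95% interval -0.87 to 0.76, limma adjusted p = 0.95).

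The interval of Col4a2 reaches past the change of Col5a1 (-0.76), and that of the brighter Col4a1 probe set ends short of it. A second Col4a1 probe set, 1426348_at, read 101, 112 and 134 against 91.1, 122 and 23.5, with clone 6 far below clones 4 and 5. Its change was -0.65 (95% interval -1.52 to 0.22, limma adjusted p = 0.37), and -0.11 without clone 6. That interval also reaches past -0.76. The direction of the small Col4a1 and Col4a2 changes turned with the clones and the scaling: without clone 5 they were -0.32 and -0.48, without clone 4 they were 0.29 and 0.32, and with a common median 0.19 and 0.09. Over the 20 nearest measured genes on chromosome 8 the median of clone 4 lay 0.40 above that of all clones on the log2 scale, while Col4a1 and Col4a2 were lowest in clone 4. With the median shift of chromosome 8 subtracted in each clone, the changes were -0.10 and -0.20. Around Col1a2 on chromosome 6 the 20 nearest genes were at 0.13 between the groups. The same subtraction kept all 6 calls. It used whole-chromosome medians, which lay between -0.04 and 0.05 on chromosome 6, so it could not check that local shift.

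To set both classes side by side, each clone was expressed relative to the mean of the (−)/(+) clones. Over Col1a2, Col3a1, Col5a1 and Col5a2 the (−)/(+) clones lay at -0.16, -0.10 and 0.25 and the (+)/(+) clones at -1.22, -1.06 and -1.0 on the log2 scale. Over Col4a1 and Col4a2 the values were -0.13, -0.32 and 0.45, and -0.62, 0.78 and -0.18. The fibrillar chains thus split the groups with little spread among clones 4, 5 and 6, and the basement membrane chains spread over more than the distance between the groups. The fibrillar change minus the basement membrane change was -1.09 on the log2 scale, and -0.71 without clone 5. With the probe sets of each gene averaged it was -0.62.

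For single genes the difference was also taken within each clone. Col1a2 is the member that fell most in these same data, so a test of a pair with it gives no separate support. Within a clone, Col1a2 relative to Col4a1 was lower in every (+)/(+) clone than in every (−)/(+) clone, at -0.17, 0.24 and -0.07 against -1.40, -2.05 and -1.41 around the (−)/(+) mean. The difference was -1.62 (two-sided exact permutation test, p = 0.1, the smallest that 3 against 3 clones can give), and -0.96 with the mean of all probe sets. Col1a2 relative to Col4a2 gave -1.53 (exact permutation p = 0.1). Col4a1 relative to Col4a2 gave 0.09 (exact permutation p = 0.6), and 3 such relations were computed.

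**Figure D3:**
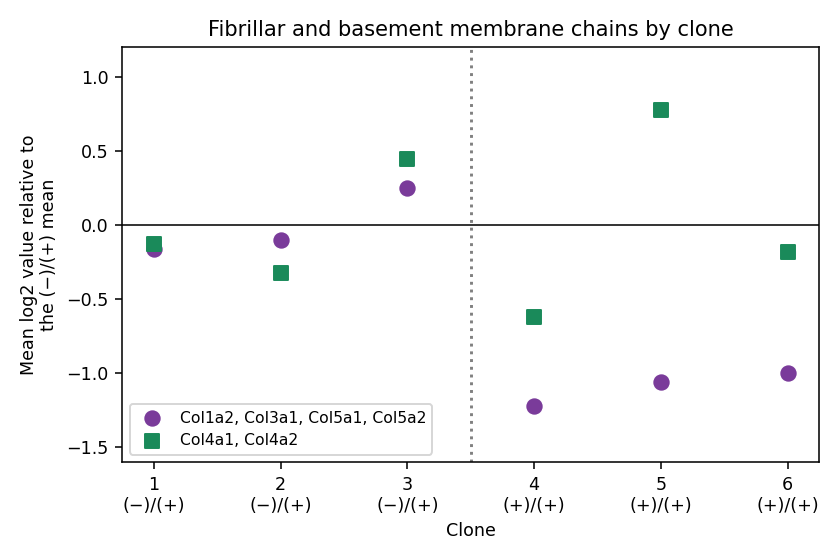
Mean log2 value of the 4 tested fibrillar genes (circles) and of Col4a1 and Col4a2 (squares) in each clone, relative to the mean of the (−)/(+) clones. The circles of clones 4, 5 and 6 lie between -1.22 and -1.0, and the squares between -0.62 in clone 4 and 0.78 in clone 5.

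Within the (−)/(+) group clone 3 was the highest in all 12 tested collagen probe sets, against 28.8% of all tested probe sets and 9 of the 14 tested fibroblast markers. Across the 6 clones the log2 values of the 5 fibrillar genes correlated with each other at Pearson's r of 0.80 to 0.99 over the 10 pairs. The fibrillar genes correlated with Col4a1 and Col4a2 at -0.11 to 0.29 over 10 pairs, and Col4a1 with Col4a2 at 0.98. These values describe 6 clones, with all genes read from the same 6 arrays, and contain the group difference. Among 6025 tested genes with a mean signal above 500, those most like Col1a2 over the 6 clones were Bgn (r = 0.994), Anxa2 (0.993), Timp2 (0.992), Tapbp (0.989) and Prss23 (0.989). Bgn encodes biglycan, a small proteoglycan that binds collagen, and read 1359, 1459 and 1943 against 634, 851 and 735. Timp2, an inhibitor of matrix metalloproteinases, read 1446, 1579 and 2061 against 729, 858 and 737.

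Of 33 remaining collagen chains 15 were tested, of which 1 was called lower and 0 higher (1.41% and 1.55% of all tested genes). Of the 15, 12 had a negative change and 5 were lower without overlap (15.8% of all tested genes). The median change was -0.36, beside -0.05 over all tested genes. The one called was Col4a5, a basement membrane chain of kidney, lung and skin, at 412, 537 and 581 against 203, 257 and 260 (-1.03, 95% interval -1.41 to -0.65, limma adjusted p = 0.017). Its groups did not overlap, unlike those of Col4a1 and Col4a2, and the call was lost without clone 3, 4, 5 or 6 (limma adjusted p = 0.071, 0.055, 0.054 and 0.074). Col6a2 and Col6a3, partners of Col6a1 in collagen VI, were named after their values were seen: Col6a2 read 129, 116 and 171 against 87.5, 140 and 118, and Col6a3 read 151, 191 and 190 against 121, 144 and 105, neither of them called (limma adjusted p = 0.56 and 0.18).

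Genes that fold, modify and process collagen were mostly not called: of 22 tested, 2 were lower and 0 higher, with a median of -0.22. Over all tested genes 1.41% were called lower and 1.55% higher. Of the 22, 17 had a negative change and 7 were lower without overlap (15.8% of all tested genes). In limma 10 had an unadjusted p under 0.05 (20.9% of all tested genes), of which Plod2 and Colgalt2 were higher and the rest lower. Pcolce, a secreted protein that speeds removal of the C-terminal propeptide of fibrillar procollagens, read 2988, 3197 and 3653 in clones 1, 2 and 3, against 1863, 1758 and 1736 in clones 4, 5 and 6 (-0.87, limma adjusted p = 0.0051). Lox, the lysyl oxidase that cross-links fibrils, read 231, 240 and 345 against 104, 150 and 143 (-0.95, limma adjusted p = 0.04). Neither overlapped between the groups, Pcolce kept its call without any single clone, and Lox lost it without clone 2, 3, 4, 5 or 6 (limma adjusted p = 0.06, 0.13, 0.1, 0.078 and 0.13). Serpinh1, the collagen chaperone of the endoplasmic reticulum, was chosen after its values were seen and overlapped, at 1340, 1839 and 1552 against 1405, 1163 and 1141 (-0.34, limma adjusted p = 0.2).

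Among collagen receptors and collagenases 2 of 6 tested genes were called lower and 0 higher (1.41% and 1.55% of all tested genes), with a median of -0.37. Ddr1, a receptor tyrosine kinase that binds collagen, read 1268, 1679 and 1889 against 921, 854 and 768 (-0.90, limma adjusted p = 0.018). Mrc2, an endocytic receptor that takes up collagen for breakdown, read 179, 184 and 219 against 116, 76.5 and 89.3 (-0.95, limma adjusted p = 0.035). Of 12 tested basement membrane partners, which include laminins and nidogens, 1 was called lower and 0 higher, with a median of -0.44. Of the 12, 11 had a negative change, 7 had an unadjusted p under 0.05 in limma and 6 were lower without overlap. Over all tested genes 20.9% had such a p and 15.8% were lower without overlap. The called gene was Sparc, a collagen-binding matrix protein, at 3899, 3679 and 3309 against 2527, 2752 and 2554 (-0.47, limma adjusted p = 0.039). In limma the Ddr1 call was lost without clone 3, 5 or 6 (adjusted p = 0.072, 0.064 and 0.1), the Mrc2 call without clone 2, 3, 5 or 6 (0.066, 0.12, 0.097 and 0.14), and the Sparc call without any one of the 6 clones (0.061 to 0.16).

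**Figure D4:**
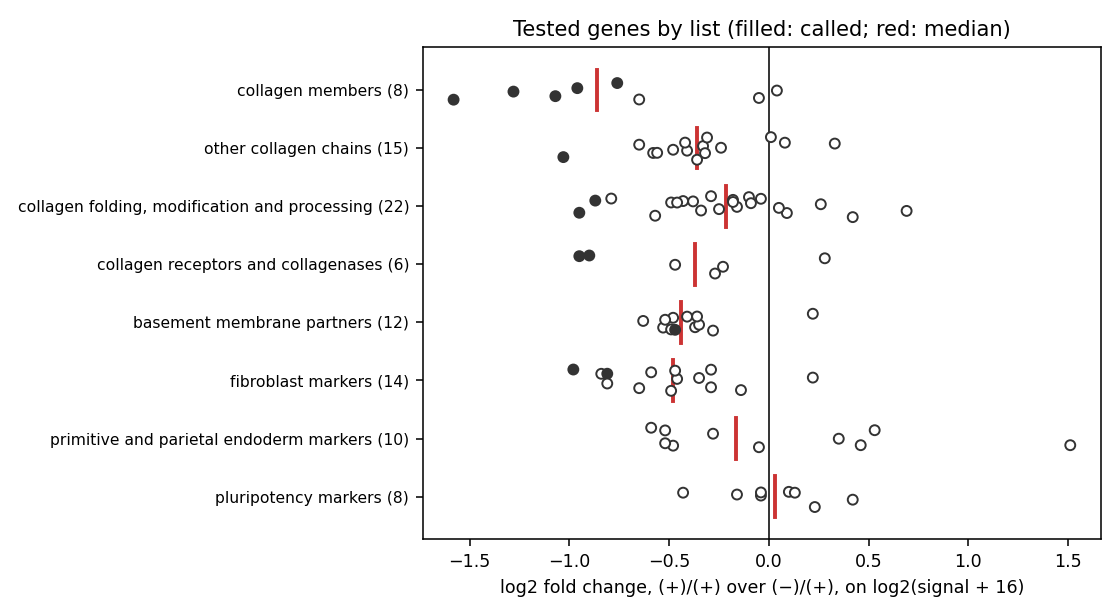
Log2 fold change, (+)/(+) over (−)/(+), of the tested genes of each list with 1 probe set per gene; filled points were called lower, red lines are medians, and the number tested is in brackets. The called genes are 5 of 8 among the members, and 0 to 2 in each of the other lists.

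Most tested fibroblast markers read lower in the (+)/(+) clones, as the fibrillar chains did, and most were not called. Of 22 such genes 14 were tested, and 2 were called lower and 0 higher (1.41% and 1.55% of all tested genes). Of the 14, 13 had a negative change, with a median of -0.48. In limma 9 had an unadjusted p under 0.05 (20.9% of all tested genes). Without overlap between the groups 8 were lower (15.8% of all tested genes). Their summed signal over all 22 ranged from 6269 to 9894 across (−)/(+) clones and from 4711 to 5103 across (+)/(+) clones. The largest part of this sum in every clone was S100a4, chosen after its values were seen. It read 2672, 3326 and 5229 against 2100, 1839 and 2203 (-0.81, limma adjusted p = 0.06). Fbln2 (430, 473 and 549 against 223, 292 and 204; -0.98, limma adjusted p = 0.019) and Acta2 (363, 408 and 550 against 241, 243 and 235; -0.81, limma adjusted p = 0.036) were called, and without single clones the count was 0 to 4, with 0 without clone 3, 4 or 6 and 4 without clone 1. Thy1 (229, 248 and 351 against 183, 211 and 187) and Pdgfrb (332, 403 and 295 against 214, 251 and 263) were lower without overlap and were not called. Postn had the only positive change of the tested markers, at 103, 84.7 and 135 against 108, 135 and 135 (0.22, limma adjusted p = 0.59). Thy1, Pdgfrb, Postn and Lum were likewise chosen after their values were seen. Lum was near background in all clones. Twist2, Fap, Tagln, Cnn1, Cd248, Tbx15 and Meox1 also lay below the filter and were not tested, and no marker of the list was at 0. Fibroblasts were the cells of origin and the feeder cells, and the part of either in the signals of the fibrillar chains was not tested.

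Markers of primitive and parietal endoderm, which make type IV collagen in quantity, were highest in clone 3 or clone 5 for most genes tested. Of 17 genes 10 were tested with 0 called by limma in either direction and a median of -0.16. In limma 4 had an unadjusted p under 0.05 (20.9% of all tested genes): Pdgfra, Amn and Plat, which were lower in the (+)/(+) clones, and Srgn, which was higher. Without overlap 2 were lower (15.8% of all tested genes). The summed signal of the list ranged from 1539 to 1953 across (−)/(+) clones and from 1363 to 2502 across (+)/(+) clones. Hnf4a, below the filter and chosen after its values were seen, read 82.3, 88.4 and 70.2 against 11.6, 22 and 22.3. Clone 5 was the highest of all 6 clones in 4 of the 10 (Gata6, Sox17, Lrp2 and Srgn), against 13.3% of all tested probe sets, and clone 3 in 5 of the 10, against 15.3%. Srgn, a proteoglycan core protein of parietal endoderm, read 133, 75.1 and 97.9 against 193, 668 and 234 (1.51, limma adjusted p = 0.062), so that clone 5 was far above the others, whereas for Col4a1 1452035_at and Col4a2 its lead over clone 3 was smaller (798 against 595, and 349 against 292) and for Col4a1 1426348_at clone 3 was higher (134 against 122). The endoderm factor Gata6, chosen after its values were seen, read 205, 129 and 161 against 193, 312 and 202. Pdgfra (212, 224 and 333 against 143, 228 and 152) and Amn (274, 231 and 301 against 137, 213 and 201) did not have their highest value in clone 5. The laminin chain Lama1, which was likewise chosen after its values were seen, was highest in clone 5 (233, 295 and 294 against 161, 351 and 193). It was the only 1 of the 12 tested basement membrane partners with its highest value in clone 5, and clone 1 was the highest in 6. The part of endoderm cells in the Col4a1 and Col4a2 signals of clone 5 was not tested.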

How the data were processed

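Total RNA of 6 iPSC lines was biotin-labelled and read on single-colour Affymetrix Mouse Genome 430 2.0 arrays. The authors deposited MAS 5.0 signal intensities on a linear scale, 1 per probe set, which had been scaled so that the mean without the highest and lowest 2% was 500 on each array. Of 45101 probe sets, 64 were controls and not analysed; 34945 carried 1 gene symbol in the array annotation, 932 several and 9160 none, and 204 of the first had no match in RefSeq (GRCm38.p6).

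Values were taken as log2(signal + 16). Those averaging more than the overall median (6.38) over the 6 arrays, 22518 in number, were tested with limma 3.58.1 in R 4.3.3 (lmFit, then eBayes with trend, on group alone), with Benjamini-Hochberg adjustment over all of them and calls at an adjusted p under 0.05. Genes were represented by their brightest probe set. The scripts were tested on simulated data. Single pairs of genes were compared by exact permutation (scipy 1.17.1). Motifs were searched on both strands of RefSeq windows, and figures were drawn with matplotlib 3.10.9.

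The members and lists were chosen with earlier results of these data known. Named were all members, the called list genes (at most 4 per list, by adjusted p; for lists without a call, the 3 brightest), and the 5 genes most like Col1a2. Alternatives were other scalings (quantile, common median), pseudocounts (1, 64) and filters (none, or an average signal above 500), no trend, arrayWeights, averaging the probe sets of each gene, subtraction of chromosome medians, leaving out each clone or clones 1 and 4, and the methods' t-test (p under 0.05, over 2.5-fold, average signal above 500).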

Additional observations from a re-analysis of the deposited data

How the results depend on the processing

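No paired analysis was possible because the clones of each group carry numbers of their own. The count of collagen probe sets called lower was 6 and stayed at 4 to 7 under quantile normalization, a common median, both pseudocounts, no trend, arrayWeights, chromosome medians and without clones 1 and 4. It was 3 without the filter, 1 with a mean signal above 500, where 1 member was tested, and 1 to 6 without single clones. The count of genes was 5, against 2 without the filter, 1 above 500, 3 without the trend, 2 with the mean of all probe sets, 3 without clones 1 and 4 and 1 to 5 without single clones. The methods' t-test called 1 probe set and 1 gene, Col1a2; 10 of the 19 probe sets had an unadjusted p under 0.05, all lower, and 0 passed Benjamini-Hochberg (lowest adjusted p = 0.18). Col1a2 probe set 1450857_a_at passed in all 17 limma alternatives (adjusted p = 0.00064 to 0.034). The fibrillar minus basement membrane change kept its direction (-0.62 to -1.34; -0.71 to -1.33 without single clones).

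Scaling to a common median moved the median of all tested probe sets from -0.05 to 0.10 and the calls over all probe sets from 398 lower and 305 higher (43.4% higher) to 238 lower and 917 higher (79.4% higher). Over all probe sets, calls were 120 lower and 101 higher without the filter, 178 and 87 without the trend, 1512 and 1015 with arrayWeights, and 25 to 515 lower without single clones.

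Genes called lower in the lists (1 of the other chains, 2 for processing, 2 receptors, 1 basement membrane partner, 2 fibroblast markers) were, in this order, 0, 1, 1, 2 and 0 above 500, 3, 6, 3, 5 and 6 with arrayWeights, 1, 1, 1, 0 and 1 without the filter and without the trend, 1, 4, 2, 2 and 4 without clones 1 and 4, and 0 in each by the methods' t-test. Without single clones they were 0 to 1, 1 to 3, 0 to 2, 0 to 2 and 0 to 4. With the mean of all probe sets 0 receptors, partners and fibroblast markers were called. Processing, receptors and fibroblast markers had 1 each after quantile normalization, receptors 1 after subtraction of chromosome medians, and partners 2 with a pseudocount of 64 and 0 with a common median, where fibroblast markers had 1. Endoderm markers had 1 lower with arrayWeights and 1 higher with arrayWeights, a common median or without clones 1 and 4. Pluripotency markers had 1 lower without clones 1 and 4 (0 to 1 without single clones), 2 higher with a common median and 1 with arrayWeights, and processing genes 1 higher with either. The causes were not tested. The number of clones limits the precision, and signals near the background carry little information on change.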

Other observations

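Some genes that modify collagen read higher in the (+)/(+) clones, against the direction of the fibrillar chains, and were chosen after their values were seen. They were exceptions in their list, where 17 of the 22 tested genes had a negative change and 7 were lower without overlap. Colgalt2, which adds galactose to hydroxylysine of collagen, read 76.4, 63.1 and 97.8 in clones 1, 2 and 3, against 120, 145 and 142 in clones 4, 5 and 6 (0.69, limma adjusted p = 0.096). Plod2, the lysyl hydroxylase of the collagen telopeptides, read 1435, 1621 and 991 against 1647, 1854 and 1831 (0.42, limma adjusted p = 0.19). P3h2, a prolyl 3-hydroxylase that acts on type IV collagen, lay below the filter at 21.9, 23.1 and 42.2 against 58.7, 62.5 and 68.7. In all of these the groups did not overlap, and none was called. The share of all genes that were higher without overlap was not counted. Related genes went the other way without overlap and were not called. Plod3 read 371, 371 and 383 against 250, 275 and 332, and P3h3 read 159, 114 and 125 against 97.9, 71.6 and 81.9. P3h4 read 293, 289 and 330 against 233, 204 and 197, and Plod1, P3h1 and Colgalt1 overlapped. The prolyl 4-hydroxylase subunits overlapped: P4ha1 read 1063, 885 and 685 against 577, 995 and 897, and P4ha2 read 827, 487 and 584 against 581, 925 and 764.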
